A study of Rattus norvegicus with 6 samples.

Results

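The genes described here are targets of the transcription factor p53 and genes of mitochondrial apoptosis in the brain of newborn rats (Rattus norvegicus). They were chosen by name, as Cdkn1a, Ccng1, Mdm2, Phlda3, Bax, Bbc3, Pmaip1, Bcl2l11 and Bcl2. Of these 9 genes, 8 had a row among the 30498 genes of the expression tables, and Bcl2 was not analysed here. Polyadenylated RNA was sequenced from 3 brains of pups whose mothers had been kept on caloric restriction (CR), and from 3 brains of pups of control mothers. CR during pregnancy is a model of fetal growth restriction, and all pups were delivered by Caesarean section with the brain removed directly afterwards. The labels describe all 6 samples as whole brain and give neither the strain, the sex, the degree of restriction nor whether the 3 samples of a group came from different litters. The p-values below therefore measure the spread between these libraries.

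p53 is a DNA-binding factor that is kept at low levels by the ubiquitin ligase Mdm2 and becomes stable after DNA damage and other stresses. It then switches on genes that halt the cell cycle, genes that feed back on p53 itself, and genes that promote cell death. Death through mitochondria is set by the BCL2 family. BH3-only proteins such as those encoded by Bbc3, Pmaip1 and Bcl2l11 release or activate the pore-forming protein Bax, survival proteins such as Bcl2 hold them back, and cytochrome c that leaves the mitochondria then activates caspases. In the developing brain this route removes surplus neurons and damaged progenitors.

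Expression was given as FPKM, reads scaled to the exon length of the gene and to the reads assigned in the library, so levels may be compared between genes. The libraries held 14030961 to 25734737 assigned reads, and the 8 genes had between 67 (Pmaip1) and 4529 reads (Ccng1) in a library. For 1 kb of exon, 3 reads are worth 0.117 to 0.214 FPKM, below the values of all 8 genes. The pan-neuronal markers were abundant in all libraries (sums over 8 genes of 4219 to 4422 FPKM in CR and 3737 to 4263 FPKM in control). Markers of thalamus, hypothalamus, midbrain, cerebellum and hindbrain, by contrast, separated the groups in spite of the common label. The 22 caudal markers summed to 152.9 to 211 FPKM in CR and to 10.4 to 25.4 FPKM in control, where Pax7, Hoxb3 and Hoxb5 had no read. In CR replicates 1 to 3, Hoxb3 was at 1.03, 0.891 and 5.61 FPKM and Hoxb5 at 0.559, 0.405 and 14.4 FPKM. Both were thus highest by far in CR replicate 3. All 22 had higher values in each CR library than in any control library. The 10 dorsal telencephalic markers, genes of cortical excitatory neurons and their precursors, summed to 182 to 282 FPKM in CR and to 477 to 601 FPKM in control. By the same test 8 of them passed as lower, against 16.2% of all genes, while Emx2 and Eomes did not pass (limma adjusted p = 0.140 and 0.289). The 10 microglial markers summed to 57.8 to 66.4 FPKM in CR and to 32.7 to 45.9 FPKM in control. The 8 proliferation markers summed to 103 to 114.15 FPKM in CR and 113.64 to 132 FPKM in control, with a slight overlap. Because tissue was sampled in bulk, fewer cells of a type and less RNA per cell cannot be told apart, and regional content cannot be told apart from feeding in any comparison below.

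Of the 8 genes, 2 rose in CR (Phlda3 and Ccng1), 2 fell (Mdm2 and Bbc3) and 4 did not pass (Cdkn1a, Bax, Pmaip1 and Bcl2l11). The test was limma on log2(FPKM + 1), adjusted by the Benjamini-Hochberg method over 15247 genes, with a threshold of 0.05, and all 8 genes passed its filter on low values (a mean over the 6 libraries of at least 0.5 FPKM). By the same test 33.9% of all genes passed, 17.7% as higher and 16.2% as lower in CR. The median log2 fold change of the 8 genes was -0.04 and that of all tested genes was 0.01. Values of the groups did not overlap in 4 of the 8 genes, against 50.3% of all tested genes. With numbers this small, 4 calls in 8 genes are not set apart from the background, and the genes are described singly.

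**Figure D1:**
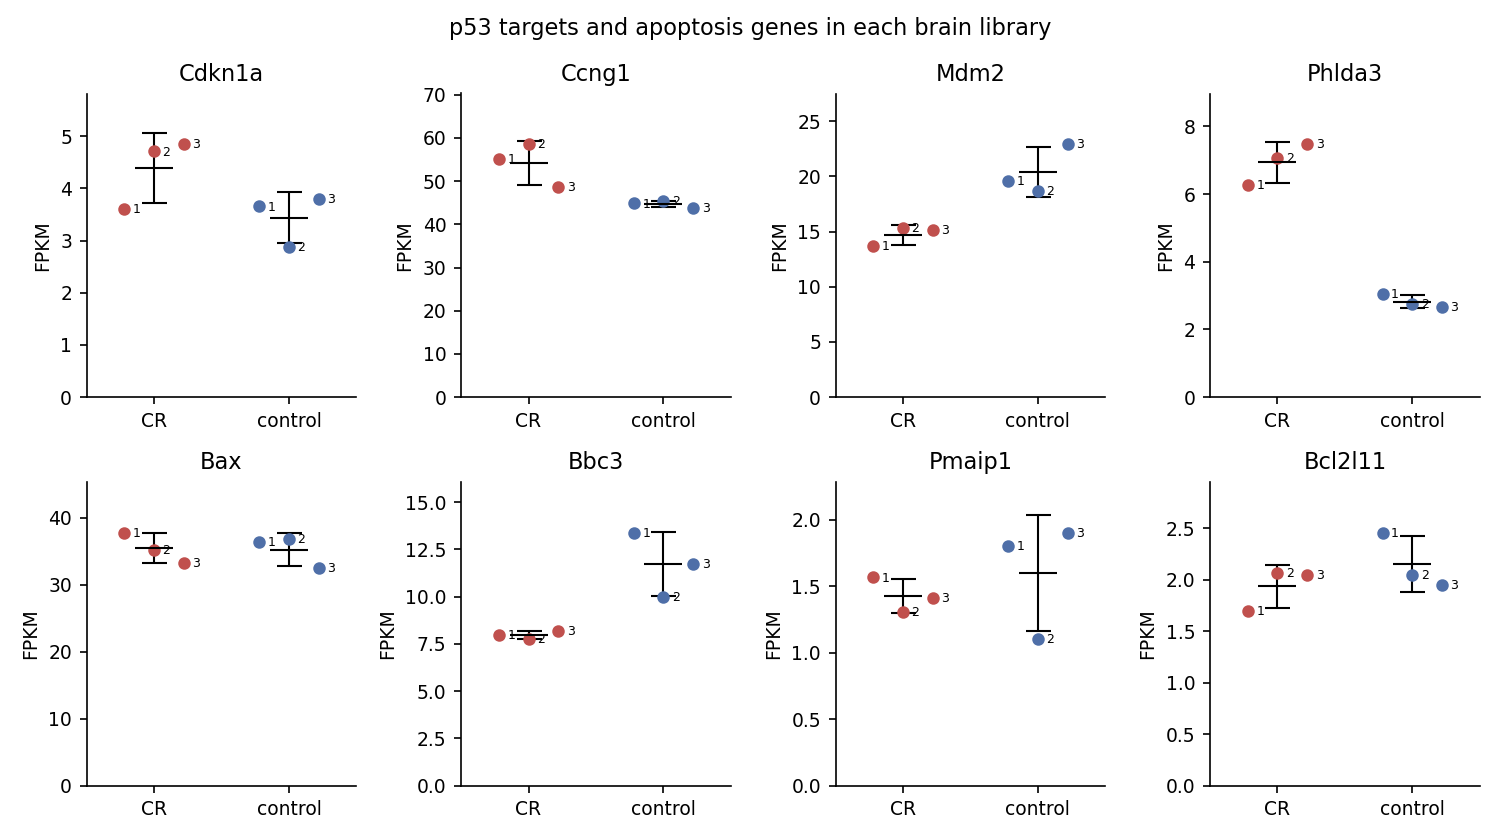
FPKM of the 8 genes in each library, with CR on the left and control on the right of each panel; points are libraries numbered by replicate, and bars are means ± SD over 3 libraries. Phlda3 and Ccng1 lay higher and Mdm2 and Bbc3 lower in all CR libraries than in all control libraries, while the other 4 genes overlapped.

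The p53 consensus was first looked for in the promoters, since binding of p53 is what makes a gene a direct target. RefSeq promoters (assembly GRCr8, 250 bases before to 50 bases after the gene start) were available for 7 of the 9 genes, Bcl2 included, and not for Bax and Bbc3. The p53 response element was looked for as 2 abutting 10-base motifs, and this whole consensus reads the same on both strands. It was called present with up to 2 mismatches and with its 4 core letters, the C and the G of each motif, intact. Matches were found in 2 of the 7 promoters, those of Cdkn1a and Ccng1, against 0.335% of 33469 rat promoters of the same length. Both sequences are shown because these are the genes whose nearby promoter carries the letters, with the matched element in capitals and 1 mismatch in each. The Cdkn1a stretch is chr20:7150711-7150770 (plus strand), with the element starting at position -201 from the gene start, and the Ccng1 stretch is chr10:25685079-25685126 (minus strand), with the element starting at position -242 at the edge of the window.
Cdkn1a: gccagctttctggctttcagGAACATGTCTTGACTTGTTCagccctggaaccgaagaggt
Ccng1: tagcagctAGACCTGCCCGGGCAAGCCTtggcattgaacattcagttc
The promoter windows of Mdm2, Phlda3, Pmaip1, Bcl2l11 and Bcl2 held no such match. This says only that no abutting pair of motifs within 2 mismatches lies in these 300 bases. Motifs with other bases between them were not looked for. In a wider list of 28 other p53 target genes, 3 of 24 promoters held a match (Aen, Pidd1 and Gtse1), and none of those 3 genes passed the test.

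Among the genes that p53 induces to stop division or restrain growth signals, Phlda3 showed the largest difference of the 8. Phlda3 encodes a small lipid-binding protein that keeps the kinase Akt from the membrane. It lies on chromosome 13 from 47193086 to 47196335 (mRatBN7.2, plus strand). Its level was 6.28, 7.07 and 7.48 FPKM in CR replicates 1 to 3, against 3.05, 2.76 and 2.67 FPKM in control replicates 1 to 3. The lowest CR library was thus above the highest control library by a wide margin. Group means were 6.94 ± 0.609 FPKM in CR and 2.83 ± 0.202 FPKM in control (SD, n = 3 each), a 2.46-fold ratio. The log2 fold change was 1.05 (SE 0.0910, 95% interval 0.84 to 1.26, limma adjusted p = 0.000534), which placed Phlda3 at rank 311 of 15247 genes by size of change. The call held when any single library was left out, with adjusted p between 0.00104 and 0.00487. In the same libraries the sum of caudal markers was 9.25 times its control level, and its part in the difference of Phlda3 was not tested.

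Ccng1 encodes cyclin G1, which recruits a phosphatase to Mdm2 and is a classical p53 target. It was the most abundant of the 8 genes in both groups. Ccng1 stood at 55.2, 58.6 and 48.6 FPKM in CR replicates 1 to 3, against 44.8, 45.4 and 43.9 FPKM in control replicates 1 to 3. The control libraries lay close together and all CR libraries lay above them, CR replicate 3 least. The log2 fold change was 0.27 (SE 0.0691, 95% interval 0.11 to 0.43, limma adjusted p = 0.0217), a 1.21-fold ratio of means. Ccng1 no longer passed when control replicate 1 (adjusted p = 0.0508), CR replicate 1 (0.0674) or CR replicate 2 (0.0713) was left out.

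Cdkn1a encodes p21, the inhibitor of cyclin-dependent kinases through which p53 arrests the cell cycle. Cdkn1a stood at 3.61, 4.71 and 4.85 FPKM in CR replicates 1 to 3, against 3.65, 2.88 and 3.79 FPKM in control replicates 1 to 3. CR replicates 2 and 3 were above all controls, and CR replicate 1 lay among them. The log2 fold change of 0.28 did not pass (SE 0.129, 95% interval -0.02 to 0.58, limma adjusted p = 0.134). The ratio of means was 1.28 for Cdkn1a, near the 1.21 of Ccng1, but the spread of Cdkn1a between libraries was wider.

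Mdm2, which is both a target of p53 and its main antagonist, fell. It lies on chromosome 7 from 53290664 to 53314915 on the minus strand. Mdm2 stood at 13.7, 15.3 and 15.2 FPKM in CR replicates 1 to 3, against 19.6, 18.7 and 22.9 FPKM in control replicates 1 to 3. The highest CR library was below the lowest control library. Means were 14.7 ± 0.894 FPKM in CR and 20.4 ± 2.24 FPKM in control (SD, n = 3 each), and the log2 fold change was -0.44 (SE 0.0850, 95% interval -0.64 to -0.24, limma adjusted p = 0.00727). Mdm2 and Phlda3, both named as p53 targets, therefore moved in opposite directions in the same libraries.

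**Figure D2:**
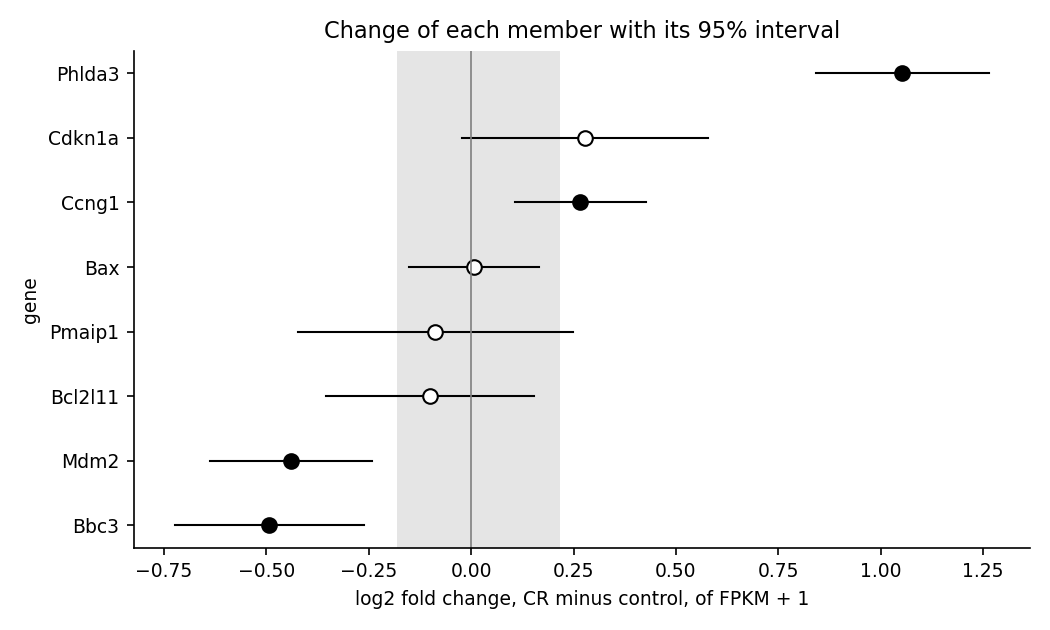
Log2 fold change (CR minus control, of FPKM + 1) of each of the 8 genes with its 95% interval from limma; filled points passed an adjusted p of 0.05, open points did not, and the grey band spans the middle 50% of all 15247 tested genes. Phlda3 at 1.05 stands far to the right of the band, and Mdm2 at -0.44 and Bbc3 at -0.49 lie to its left.

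Among the genes that carry out death, the BH3-only gene Bbc3 fell. Bbc3 encodes PUMA, a p53-induced activator of apoptosis that acts in developing neurons, and lies on chromosome 1 from 77014543 to 77022509 on the plus strand. Its level was 7.99, 7.78 and 8.17 FPKM in CR replicates 1 to 3, against 13.4, 10.01 and 11.7 FPKM in control replicates 1 to 3. The CR libraries were nearly equal and all lay below the control libraries, which were more spread. Means were 7.98 ± 0.197 FPKM in CR and 11.7 ± 1.69 FPKM in control (SD, n = 3 each). The log2 fold change of Bbc3 was -0.49 (SE 0.0993, 95% interval -0.72 to -0.26, limma adjusted p = 0.00865), and leaving out any single library gave an adjusted p of at most 0.0361.

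The other BH3-only genes were scarce and did not pass. Pmaip1, which encodes NOXA, a p53-induced partner of the survival protein Mcl1, stood at 1.57, 1.31 and 1.41 FPKM in CR replicates 1 to 3. In control replicates 1 to 3 Pmaip1 was at 1.80, 1.10 and 1.90 FPKM, so that control replicate 2 was below all CR libraries and the other controls above them. The log2 fold change of Pmaip1 was -0.09 (95% interval -0.42 to 0.25, limma adjusted p = 0.670). Bcl2l11, which encodes BIM and is induced in neurons by FOXO factors and by loss of trophic support, was at 1.69, 2.07 and 2.05 FPKM in CR replicates 1 to 3 and at 2.46, 2.05 and 1.95 FPKM in control replicates 1 to 3. The groups overlapped, and the log2 fold change of Bcl2l11 was -0.10 (95% interval -0.36 to 0.15, limma adjusted p = 0.507). Pmaip1 had 67 to 96 reads in a library and Bcl2l11 had 192 to 296. On the log2(FPKM + 1) scale a given ratio of FPKM yields a smaller change in such scarce genes than in Bbc3, so their intervals do not show that the BH3-only genes behaved differently.

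Bax, the pore-forming effector on which the BH3-only proteins act, had nearly the same level in both groups. It stood at 37.8, 35.2 and 33.3 FPKM in CR replicates 1 to 3, against 36.4, 36.9 and 32.5 FPKM in control replicates 1 to 3. The ranges of the groups overlapped, and the log2 fold change was 0.01 with a 95% interval of -0.15 to 0.17 (SE 0.0681, limma adjusted p = 0.944). Of the 1986 exon bases of Bax (chromosome 1, 95938808 to 95945368, minus strand), 918 also belong to exons of the ferritin light chain gene Ftl1 on the same strand. Ftl1 itself was at 166 ± 3.32 FPKM in CR and 178 ± 13.6 FPKM in control (SD, n = 3 each; limma adjusted p = 0.259). How reads of the shared bases were assigned is unknown here, and the level of Bax is uncertain to that extent. The exons of the other 7 genes were shared with no other gene of the tables.

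The order of levels was similar in both groups. In CR it ran from Ccng1 and Bax through Mdm2, Bbc3, Phlda3, Cdkn1a and Bcl2l11 to Pmaip1, with no overlap between neighbours. In control the order was the same except that Cdkn1a stood above Phlda3, and those 2 genes overlapped between libraries (2.88 to 3.79 FPKM and 2.67 to 3.05 FPKM). Each gene that passed was also compared with 12346 other named genes of at least 1 FPKM, by the root mean square difference of their centred log2 values over the 6 libraries. The nearest profile to Phlda3 was that of Cend1, a neuronal gene for exit from the cell cycle (difference 0.0588), which stood at 39.0 ± 2.02 FPKM in CR and 19.3 ± 0.420 FPKM in control (SD, n = 3 each). The nearest to Mdm2 was Ankrd40 (difference 0.0253), the nearest to Bbc3 was Itpripl1 (0.0467) and the nearest to Ccng1 was Znrd1as1 (0.0400). Itpripl1 averaged 0.968 FPKM in CR and 1.72 FPKM in control. Znrd1as1 averaged 1.23 FPKM in CR and 0.828 FPKM in control and did not pass (limma adjusted p = 0.0637). The log2(FPKM + 1) scale understates changes of such scarce genes, so a near profile does not mean an equal ratio of FPKM.

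Among the regulators of p53, 3 of 11 tested genes fell, none rose and 8 did not pass, with a median log2 fold change of -0.14. The share past the threshold (27.3%) was below the 33.9% of all genes. At an unadjusted p of 0.05, 4 were lower and none higher, and limma-voom on the recovered reads gave 3 lower and none higher. Over all 15247 genes, 6872 had an unadjusted p under 0.05, and limma-voom gave 3079 higher and 2700 lower. Ppm1d, a phosphatase that reverses p53 activation and is itself a p53 target, was at 9.79, 10.1 and 9.46 FPKM in CR replicates 1 to 3. In control replicates 1 to 3 Ppm1d was at 14.3, 13.9 and 15.7 FPKM, with no overlap between the groups (log2 fold change -0.53, SE 0.0650, limma adjusted p = 0.00150). Mdm4, the partner of Mdm2 that masks the activation domain of p53, averaged 18.05 ± 0.884 FPKM in CR and 24.4 ± 0.824 FPKM in control (SD, n = 3 each; log2 fold change -0.42, limma adjusted p = 0.00206). Atm, the DNA damage kinase upstream of p53, averaged 2.47 ± 0.0220 FPKM in CR and 3.30 ± 0.0518 FPKM in control (SD, n = 3 each; log2 fold change -0.31, limma adjusted p = 0.0219). The call for Atm was lost without control replicate 2, without each of the 3 CR libraries in turn and with replicate number as a block (adjusted p of 0.0504 to 0.0755). The sum of dorsal telencephalic markers in the same CR libraries was 0.428 of its control value and that of proliferation markers 0.855. The sum of 10 ventral telencephalic markers was 0.624 of its control value (80.7 to 90.2 FPKM in CR and 122.9 to 156.8 FPKM in control). The proliferation sums overlapped between the groups, and 2 of those 8 markers passed as lower (25%, against 33.9% of all genes). The part of any of these marker sets in the lower values of Mdm2, Bbc3, Ppm1d and Mdm4 was not tested.

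**Figure D3:**
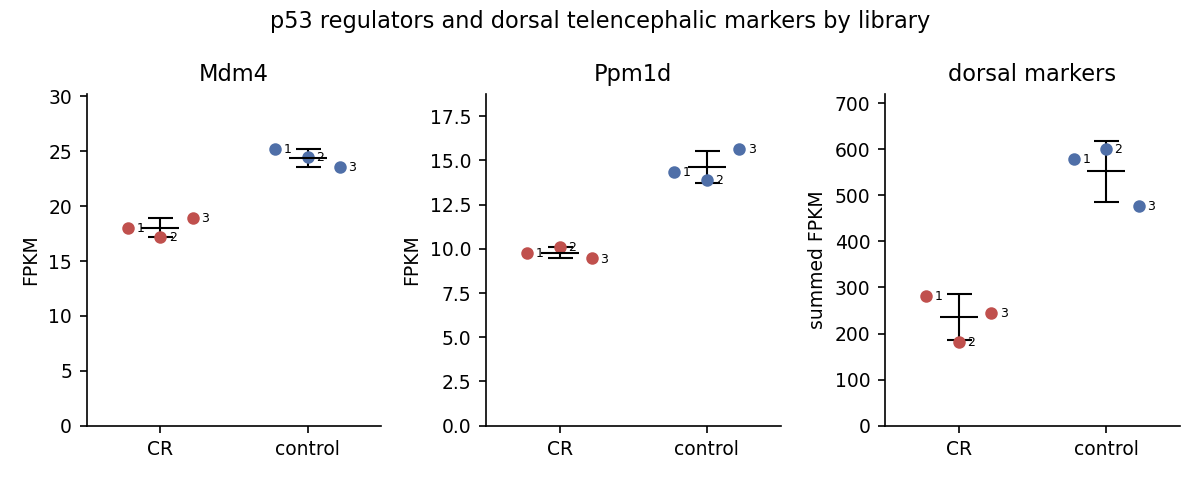
FPKM of Mdm4 and Ppm1d and the summed FPKM of 10 dorsal telencephalic markers in each library, with CR on the left and control on the right; points are libraries numbered by replicate, and bars are means ± SD over 3 libraries. In all 3 panels the 3 CR values lie below the 3 control values.

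Of 24 tested genes in the list of other p53 targets, none rose, 3 fell and 21 did not pass, with a median log2 fold change of -0.09. The 12.5% past the threshold was below the 33.9% of all genes. Over all 15247 genes, 6872 had an unadjusted p under 0.05, and limma-voom gave 3079 higher and 2700 lower. At an unadjusted p of 0.05, 2 of the 24 were higher and 4 lower, and limma-voom gave 1 higher and 4 lower. The count of higher genes was also 1 without control replicate 1, without control replicate 3, without CR replicate 1 and with a covariate for whether a library held Y-linked RNA. Plk2, a polo-like kinase induced by neuronal activity as well as by p53, had the largest decrease. It was at 52.9, 50.4 and 53.8 FPKM in CR replicates 1 to 3 and at 84.4, 93.0 and 63.5 FPKM in control replicates 1 to 3, a log2 fold change of -0.59 (SE 0.126, limma adjusted p = 0.0106). Rps27l, a ribosomal protein relative, averaged 35.0 ± 2.80 FPKM in CR and 43.3 ± 1.38 FPKM in control (SD, n = 3 each; limma adjusted p = 0.0102), although reads can be shared with its close paralog Rps27. Tigar, a sugar phosphatase that limits glycolysis, averaged 8.63 ± 0.686 FPKM in CR and 10.3 ± 0.4001 FPKM in control (SD, n = 3 each) and was just under the threshold (limma adjusted p = 0.0497). The call for Tigar was lost without any of the 6 libraries (adjusted p of 0.0630 to 0.159), with no filter on low values (0.0718), without a trend (0.0576) and with replicate number as a block (0.0867). The arrest genes Gadd45a (6.36 ± 0.727 FPKM in CR and 4.90 ± 1.10 FPKM in control, SD, n = 3 each; limma adjusted p = 0.113) and Btg2 (limma adjusted p = 0.845) and the stress sensors Sesn1 and Sesn2 (0.697 and 0.417) were among those that did not pass, and all had overlapping groups. Gadd45a passed as higher without control replicate 1 (limma adjusted p = 0.0275) and with the Y-linked covariate (0.0440). Perp (2.38 ± 0.492 FPKM in CR and 1.45 ± 0.442 FPKM in control, SD, n = 3 each) did not pass (limma adjusted p = 0.0653). It passed as higher with limma-voom (0.0373), without control replicate 3 (0.0288) and without CR replicate 1 (0.0473). Xpc, at 0.0514, was called lower with limma-voom (0.0330), without control replicate 1 (0.0388) and with the filter at 2 FPKM (0.0470). A pseudocount of 0.1 (0.0481) and median-ratio scaling (0.0482) also gave that call. None of these 24 genes had a log2 fold change as large as that of Phlda3.

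Other genes of the BCL2 family had 2 of 12 tested members higher, 1 lower and 9 that did not pass, with a median log2 fold change of 0.05. The share past the threshold (25%) was below the 33.9% of all genes. The survival gene Mcl1 fell, with 42.0, 41.7 and 40.0 FPKM in CR replicates 1 to 3 against 59.9, 56.5 and 56.9 FPKM in control replicates 1 to 3. The libraries of each group agreed closely for Mcl1 and the groups stood well apart (log2 fold change -0.48, SE 0.0456, limma adjusted p = 0.000696). The other survival genes, Bcl2l1 (14.2 ± 0.513 FPKM in CR and 14.8 ± 0.343 FPKM in control, SD, n = 3 each) and Bcl2l2 (13.5 ± 0.440 FPKM in CR and 13.7 ± 1.10 FPKM in control), did not pass (limma adjusted p = 0.429 and 0.858). Bnip3, a mitophagy receptor of the family that is induced by hypoxia, rose, at 22.1 ± 0.531 FPKM in CR and 15.8 ± 0.583 FPKM in control (SD, n = 3 each; log2 fold change 0.46, limma adjusted p = 0.00128). Bok, a relative of Bax, averaged 38.0 ± 1.44 FPKM in CR and 33.5 ± 2.02 FPKM in control (SD, n = 3 each) and was just under the threshold (limma adjusted p = 0.0498). That call was lost in 13 of 16 alternative analyses, with a pseudocount of 0.5 (adjusted p = 0.0505) and with median-ratio scaling (0.124) among them. Bak1, the second pore-forming effector, did not pass (log2 fold change 0.12, limma adjusted p = 0.250), nor did the BH3-only genes Bid, Bad and Bmf (limma adjusted p = 0.712, 0.153 and 0.796).

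Downstream of the mitochondria, 1 of 11 tested genes of caspases and the apoptosome rose, none fell and 10 did not pass, with a median log2 fold change of 0.14. The 9.09% past the threshold compares with 33.9% of all genes. Over all 15247 genes, 6872 had an unadjusted p under 0.05, and limma-voom gave 3079 higher and 2700 lower. At an unadjusted p of 0.05, 6 of the 11 were higher and 1 lower, and limma-voom gave 2 higher and none lower. The count of higher genes was 4 without control replicate 1, and it was 2 without CR replicate 1, with the filter at 2 FPKM and with the Y-linked covariate. The count of lower genes was 1 without control replicate 2, with median-ratio scaling and without a trend. Cycs, which encodes cytochrome c, rose to 114 ± 3.73 FPKM in CR, against 88.4 ± 1.36 FPKM in control (SD, n = 3 each; limma adjusted p = 0.00135), although its many processed pseudogenes can share its reads. Apaf1, the scaffold that cytochrome c binds, had 10.6 ± 0.547 FPKM in CR and 10.9 ± 0.398 FPKM in control (SD, n = 3 each; limma adjusted p = 0.680), and Casp9, the caspase it recruits, did not pass (limma adjusted p = 0.0807). Casp9 passed as higher without control replicate 1 (limma adjusted p = 0.0294) and with limma-voom (0.0376). The summed microglial markers were 1.52 times their control level in the same libraries, and their part in the higher value of Cycs was not tested.

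Among 5 tested inhibitors of apoptosis, 1 fell, none rose and 4 did not pass, and none was higher at an unadjusted p of 0.05 or with limma-voom. Over all 15247 genes, 6872 had an unadjusted p under 0.05 in either direction, and 3079 were higher with limma-voom. The share past the threshold was 20% here, against 33.9% of all genes. Birc6, a giant ubiquitin ligase of this family, averaged 10.01 ± 0.786 FPKM in CR and 12.7 ± 1.09 FPKM in control (SD, n = 3 each; limma adjusted p = 0.0239), a call lost without control replicates 2 or 3 and without CR replicates 1 or 2 (adjusted p of 0.0546 to 0.0752). Of 9 tested death receptors and adaptors, 2 rose, 1 fell and 6 did not pass, a share past the threshold (33.3%) close to that of all genes. Ripk1, a kinase downstream of death receptors, was at 2.68, 3.33 and 3.01 FPKM in CR replicates 1 to 3 and at 5.15, 4.38 and 5.04 FPKM in control replicates 1 to 3 (log2 fold change -0.55, SE 0.0996, limma adjusted p = 0.00578). Ngfr, the p75 neurotrophin receptor, averaged 3.46 ± 0.859 FPKM in CR and 1.83 ± 0.417 FPKM in control (SD, n = 3 each; limma adjusted p = 0.0229), and Tradd, an adaptor, 1.18 ± 0.0734 FPKM in CR and 0.687 ± 0.154 FPKM in control (limma adjusted p = 0.0362). Leaving out a library ended the call for Ngfr in 4 of 6 cases (control replicates 2 and 3, CR replicates 1 and 3; adjusted p of 0.0538 to 0.0823), as did dropping the filter on low values (0.0593). For Tradd it did so for each library but control replicate 1 (0.0818 to 0.1004), as did the replicate block (0.0682) and the Y-linked covariate (0.0624). Tradd also shares 488 of its 1405 exon bases with RGD621098 on the opposite strand, and Ripk1 shares 37 of its 4526 with Serpinb6a there. Of the FOXO factors, which induce Bcl2l11 and Bbc3 when insulin-type signals are low, Foxo6 fell (8.88 ± 0.884 FPKM in CR and 13.2 ± 0.744 FPKM in control, SD, n = 3 each; limma adjusted p = 0.00341). Foxo1 and Foxo3 did not pass (limma adjusted p = 0.107 and 0.817).

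**Figure D4:**
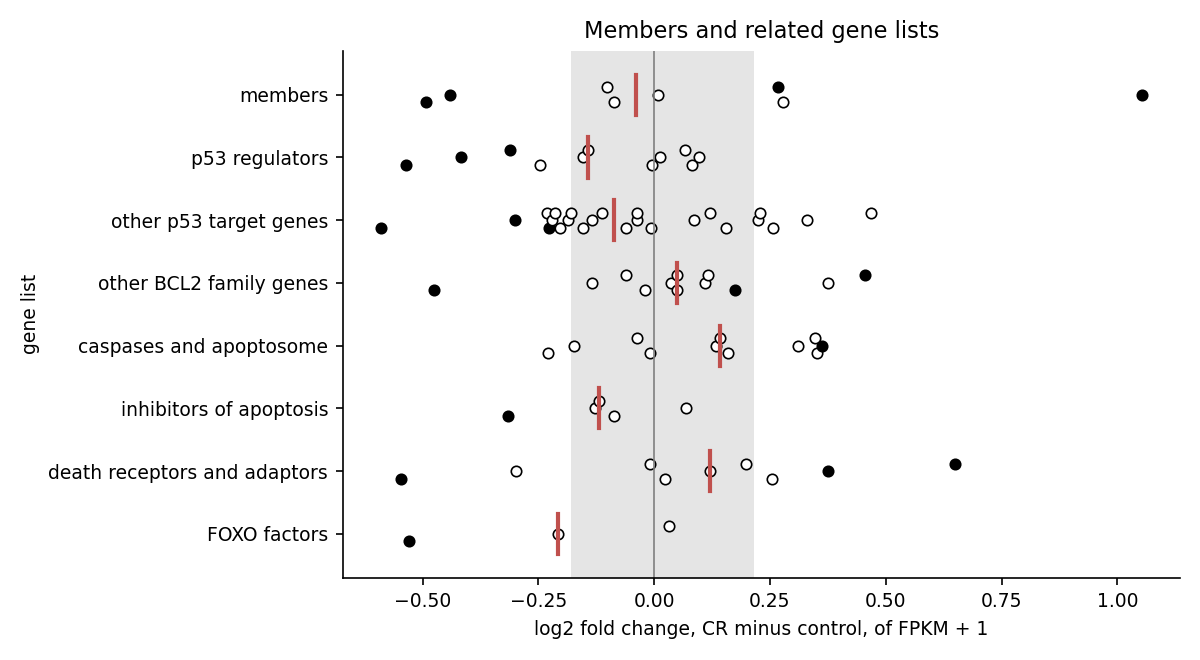
Log2 fold change (CR minus control, of FPKM + 1) of every tested gene of the 8 members and of 7 related lists; filled points passed an adjusted p of 0.05, red ticks are list medians, and the grey band spans the middle 50% of all 15247 tested genes. List medians run from -0.21 for the FOXO factors to 0.14 for the caspases, and Phlda3 lies at the far right.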

How the data were processed

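Gene tables of 6 libraries were used. The tables deposited by the authors hold FPKM, by their names, for each Ensembl gene, with an exon length per the file headers. Values times length had an equal total in each table, and 100% came out as whole reads (within 0.05), which gave the depth of each library. The submitters' processing notes name featureCounts 2.0.1, STAR 2.7.10a and the build mRatBN7.2, with cutadapt 1.16, Trimmomatic 0.36 and Trim Galore 0.4.4; settings and strand of counting are not given there. Per the labels' protocols libraries came from a stranded QIAGEN kit after TRIzol extraction.

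Genes averaging 0.5 FPKM or more were tested with limma 3.58.1 (R 4.3.3) on log2(FPKM + 1), a scale that understates the change of low genes, with a trend, group as the only term, two-sided, Benjamini-Hochberg adjusted at 0.05. The script was tested on simulated data. The members, though picked by name, and the lists were chosen with earlier results of these data known, so list counts are descriptions. Named genes were the members, up to 4 list genes past the threshold by size of change (2 by p where none passed), and the nearest profile of each member that passed. Genes outside that rule (Gadd45a, Perp, Xpc, Btg2, Sesn1, Sesn2, Bcl2l1, Bcl2l2, Bak1, Bid, Bad, Bmf, Apaf1, Casp9, Foxo1, Foxo3, Ftl1, Aen, Pidd1 and Gtse1) were named after their values were seen. Listed symbols without a row (Cop1, Eda2r, Triap1, Hrk, Foxo4, Hoxb2, Cldn5, Flt1, Alas2, Hbb and Hba-a1) were not analysed here, and a few other genes of these pathways are not reported here. Of the markers listed, endothelial, meningeal, choroid plexus and red cell genes had 0 of 14 tested members past the limma threshold, against 33.9% of all genes. Of those 14, 1 passed at an unadjusted p of 0.05 and 1 with limma-voom. Ventral telencephalic genes had 8 of 10 lower, against 16.2% of all genes. Pan-neuronal genes had 4 of 8 higher, against 17.7% of all genes, and 4 that did not pass. Among the latter, Tubb3 and Map2 were lower in each CR library than in any control library (limma adjusted p = 0.0973 and 0.117). With limma-voom 1 pan-neuronal gene was lower. Replicates differed by more than counting noise (mean chi-square per gene of 6.63 to 15.6). Alternatives were pseudocounts of 0.1 and 0.5, no filter or one at 2 FPKM, median-ratio factors, limma without trend, robust limma, replicate block, limma-voom on the recovered reads and leaving out each library; a covariate for Y-linked RNA was added after seeing the data.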

Additional observations from a re-analysis of the deposited data

How the results depend on the processing

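Mdm2, Phlda3 and Bbc3 passed the threshold, and Cdkn1a, Bax, Pmaip1 and Bcl2l11 did not, under all 16 alternatives (15 for Pmaip1, which the filter at 2 FPKM removes). Their log2 fold changes ranged from -0.50 to -0.36 for Mdm2, 1.00 to 1.31 for Phlda3 and -0.59 to -0.40 for Bbc3. Ccng1 lost its call without control replicate 1, CR replicate 1 or CR replicate 2, so that leaving out a library gave 1 to 2 members higher. Over all genes, leaving out a library gave 1695 to 2692 genes higher and 1548 to 2345 lower; the lowest counts were without CR replicate 2, and without CR replicate 3 they were 1784 and 1555. Same-numbered libraries of the groups did not deviate together (correlations of deviations of 0.0198 to 0.0454). Such correlations cannot show whether the numbers pair libraries by handling. With replicate number as a block 2352 genes were higher and 2093 lower, and 2 members were higher and 2 lower. With Y-linked RNA as a covariate, present in 2 CR and 1 control libraries, 2 members were higher and 2 lower. Counted here were 23 genes, the tested members and the list genes named by the rule. Of these, 16 kept their side of the threshold in every alternative run, and no called gene changed sign. The nearest-profile genes and those named after their values were seen were not in this count. Bax, which was not called, was at -0.02 with median-ratio factors, -0.05 without control replicate 3 and -0.04 without CR replicate 1. Depth limits Pmaip1 most, with at most 96 reads.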
